A study of Mus musculus with 6 samples.

Results

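The 7 genes described here, Fam129a, Mme, Ly75, Prex2, Grik3, Htra1 and Plin2, were chosen by the largest rises in messenger RNA or in ribosome footprints after knockdown of pyruvate kinase M (PKM) in mouse embryonic stem cells. They are 7 of 6532 genes in the table, and each is 1 row of it. The values that chose them were the ratios of siPKM over siCtrl in RNA and in footprints, so those ratios are given as a description and not as a test. The cells were wild-type E14, an established embryonic stem cell line kept on gelatin in serum with LIF. They received either a non-targeting siRNA pool (siCtrl) or a pool against both splice forms, PKM1 and PKM2 (siPKM), both at 20 nM for 36 h, and were replated 16 h before harvest. Each siRNA group gave 1 library of rRNA-depleted total RNA and 1 of ribosome-protected fragments (RPF), the stretches of message that a ribosome shields from nuclease, here RNase A and T1 after cycloheximide. Another kind of library, FAST-iCLIP from E14 cells carrying FLAG-HA-tagged PKM2 and no siRNA, had 2 replicates and counted the places where reverse transcription stopped beside a UV crosslink.

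With 1 library per siRNA group and kind, no difference between siPKM and siCtrl has a replicate check, and no p-value is given. Intervals are 95% intervals from the read counts and cover counting error only, since PCR copies cannot be told from separate molecules here. In bulk cultures, a message that is higher in each cell and a larger share of cells that make it cannot be told apart. The depth was 10349212 to 15175242 reads within coding sequences (CDS) per siRNA library and 677534 and 670508 stops in the CLIP replicates. Pkm, the targeted gene (Pkm2 in the table), was the lowest of all genes in siPKM relative to siCtrl, at 0.305-fold in RNA and 0.312-fold in RPF, which checks the labels.

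Of the 7 genes, 4 encode proteins of the cell surface or the extracellular space. Mme is neprilysin, a zinc peptidase anchored in the plasma membrane with its active site outside, which cleaves small peptides such as enkephalins. Ly75 (CD205) is an endocytic receptor of the mannose receptor family, best known for antigen uptake in dendritic cells. Grik3 is a subunit of kainate-type glutamate receptors, which are ion channels of neurons. Htra1 is a secreted serine protease that cleaves matrix proteins. The other 3 act inside the cell. Fam129a (current symbol Niban1) is a cytosolic protein known from the response to stress of the endoplasmic reticulum (ER). Prex2 is an exchange factor that loads the small GTPase Rac with GTP. Plin2 (perilipin-2) coats lipid droplets, the stores of neutral lipid, and its level is known to follow the lipid load of the cell. A message's footprints depend on how much message there is and on how many ribosomes each copy carries, and translation efficiency (TE) is the ratio of the footprints to the message.

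The genes lie on 5 chromosomes, Fam129a and Prex2 on chromosome 1, Ly75 on 2, Mme on 3, Grik3 and Plin2 on 4 and Htra1 on 7. The RefSeq promoter table (build GRCm38.p6, whereas the reads were mapped to mm9) held 6 of the 7, in 8 start sites because Mme has 3. The 250 bases before each start were searched on both strands for 8 motifs. Shown here are the windows of Fam129a, the gene highest in siPKM RNA, and of Htra1, Ly75 and Plin2, each with 1 start site and a CCAAT box. They run 5′ to 3′ on the gene's strand and end at the base before the RefSeq start, and capitals mark matches to any of the motifs. The windows are chr1:151571123-151571372 (plus strand) for Fam129a, chr7:130935953-130936202 (plus) for Htra1, chr2:60383274-60383523 (minus) for Ly75 and chr4:86670060-86670309 (minus) for Plin2.
Fam129a: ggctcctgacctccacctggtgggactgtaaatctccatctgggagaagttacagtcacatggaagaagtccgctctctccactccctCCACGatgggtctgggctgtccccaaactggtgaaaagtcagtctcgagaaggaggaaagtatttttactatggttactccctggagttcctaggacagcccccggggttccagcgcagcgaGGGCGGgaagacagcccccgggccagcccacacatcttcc
Htra1: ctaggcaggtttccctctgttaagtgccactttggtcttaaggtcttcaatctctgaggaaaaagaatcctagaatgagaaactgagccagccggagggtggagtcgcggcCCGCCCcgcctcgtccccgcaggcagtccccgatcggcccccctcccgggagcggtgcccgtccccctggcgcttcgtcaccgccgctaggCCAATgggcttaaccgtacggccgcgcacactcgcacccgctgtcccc
Ly75: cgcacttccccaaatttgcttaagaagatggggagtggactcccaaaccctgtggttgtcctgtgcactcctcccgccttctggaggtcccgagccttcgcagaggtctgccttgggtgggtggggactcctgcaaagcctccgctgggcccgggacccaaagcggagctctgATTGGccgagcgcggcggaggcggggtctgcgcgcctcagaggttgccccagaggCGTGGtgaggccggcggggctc
Plin2: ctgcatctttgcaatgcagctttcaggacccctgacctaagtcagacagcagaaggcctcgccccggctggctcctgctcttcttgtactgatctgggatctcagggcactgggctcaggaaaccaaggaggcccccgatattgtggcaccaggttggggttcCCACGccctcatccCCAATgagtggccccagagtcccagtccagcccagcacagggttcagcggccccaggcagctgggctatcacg

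The promoter windows had no motif in common. CCAAT was found in Htra1, Ly75, Plin2 and 2 of the 3 Mme windows, and in 36.1% of the 6625 windows of genes in the table (33.8% of all 32851 RefSeq windows). GGGCGG, the GC box, was in Fam129a, Grik3, Htra1 and all 3 Mme windows, and in 61.7% of the table's windows (32.7% of all). Grik3 held 6 copies of it, and its window was 82.0% G and C, against a median of 60.8% for the table's genes. CCACG, one part of the ER stress element, was in Fam129a, Grik3, Ly75 and Plin2, against 44.6% of the table's windows and 28.3% of all. The Grik3 match to CCACG overlapped a GC box. The other 5 searches found nothing in these 8 windows. They were TATAAA (5.83% of the table's windows, 12.4% of all), CACGTG (9.78% and 6.02%), ACGTG, which CACGTG contains (24.4% and 16.6%), TGATGNAA, the core of the amino acid response element (1.74% and 3.45%), and the direct repeat bound by PPAR factors (0.0151% and 0.0335%). CACGTG can also overlap CCACG. A match is only a match of letters.

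In both RNA and RPF, the siPKM level of each of the 7 was 1.5-fold or more that of siCtrl. Both ratios come from the contrast that chose the genes, 5 being the highest in RNA and 5 the highest in RPF with 3 in both, so nothing is read from this count, beside 2.88% of all genes past this size in RNA and 2.66% in RPF. In RNA 6 of the 7 were at least 2-fold higher, of 21 genes in the whole table, and in RPF 5 were, of 20. All ratios are log2 of siPKM over siCtrl with 0.5 reads added, relative to the median gene. Levels are CDS counts-per-million (CPM) values, not divided by length, so they compare libraries and not genes.

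Mme had 277 CDS reads in siCtrl RNA and 629 in siPKM RNA, or 22.9 and 60.8 CPM. Among footprints it had 294 and 878 reads, or 19.4 and 70.0 CPM. Its footprint ratio of 1.83 (1.64 to 2.02) was the highest in the table, at 3.56-fold, and its RNA ratio of 1.36 (1.16 to 1.57), at 2.57-fold, came 2nd. The siPKM library was above the siCtrl library in both kinds, and the footprint interval lay above the RNA interval.

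Ly75 was counted most deeply of the 7, with 1524 and 3373 reads in siCtrl and siPKM RNA (126 and 326 CPM) and 1774 and 3830 in RPF (117 and 305 CPM). Its ratios of 1.33 (1.24 to 1.41) in RNA and 1.36 (1.28 to 1.44) in RPF therefore had the narrowest intervals. Message and footprints were higher by nearly the same factor, 2.51-fold and 2.57-fold.

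Grik3 had 182 reads in siCtrl RNA and 383 in siPKM RNA (15.0 and 37.0 CPM), a ratio of 1.25 (1.00 to 1.51). Its footprints numbered 245 and 408 (16.1 and 32.5 CPM), a ratio of 0.99 (0.76 to 1.22). The receptor subunit thus stood 5th in RNA and 25th in RPF.

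Htra1 was among the least covered, with 155 reads in siCtrl RNA and 283 in siPKM RNA (12.8 and 27.3 CPM). Its RPF counts were 207 and 449 (13.6 and 35.8 CPM). The protease ranked 15th in RNA, at 1.05 (0.76 to 1.33), and 3rd in RPF, at 1.37 (1.13 to 1.61).

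Among the genes of the cell interior, Fam129a had 313 reads in siCtrl RNA and 876 in siPKM RNA (25.8 and 84.6 CPM), and 297 and 812 in RPF (19.6 and 64.7 CPM). Its RNA ratio of 1.66 (1.48 to 1.85), or 3.17-fold, was the highest of all genes, and its RPF ratio of 1.70 (1.51 to 1.89), or 3.25-fold, was 2nd to that of Mme.

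Prex2 had 260 reads in siCtrl RNA and 560 in siPKM RNA (21.5 and 54.1 CPM), but only 158 and 258 in RPF (10.4 and 20.6 CPM). The RNA ratio was 1.29 (1.07 to 1.498), 4th in the table, and the RPF ratio 0.96 (0.67 to 1.24), 28th. It had the lowest footprint counts of the 7 and the widest RPF interval.

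Plin2 had 222 reads in siCtrl RNA and 382 in siPKM RNA (18.3 and 36.9 CPM). In RPF it had 224 and 485 (14.8 and 38.7 CPM). The lipid droplet protein ranked 4th in RPF, at 1.37 (1.14 to 1.59), and 25th in RNA, at 0.96 (0.72 to 1.20), the lowest RNA ratio of the 7. In RNA the intervals of Mme, Ly75, Prex2, Grik3 and Htra1 overlapped one another, and in RPF so did those of Ly75, Htra1 and Plin2.

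**Figure D1:**
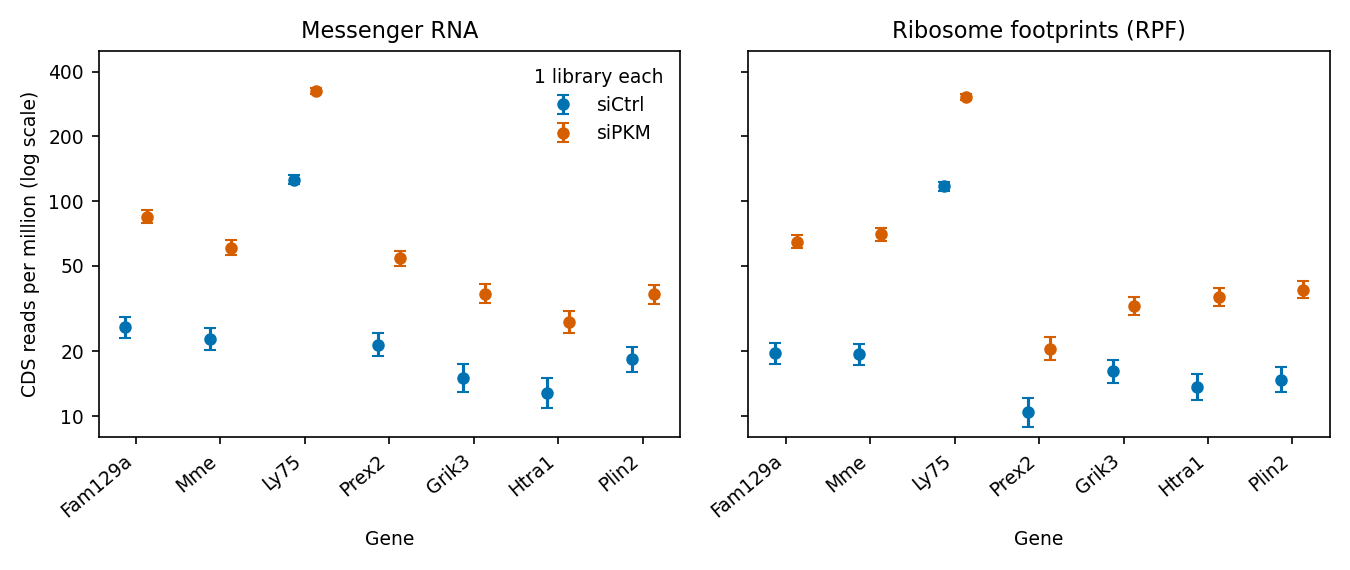
CDS read level (CPM) of the 7 genes (x axis) in messenger RNA (left) and ribosome footprints (right), on a log scale; each point is 1 library, blue for siCtrl and orange for siPKM, with exact 95% Poisson intervals of the read count. The siPKM point lies above the siCtrl point for every gene in both panels.

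The table itself limits which genes could be chosen. The smallest CDS count of any gene was 151 in each of the 4 siRNA libraries, and genes below that are not analysed here. Htra1, at 155 reads in siCtrl RNA, and Prex2, at 158 in siCtrl RPF, lay just above that limit. In siCtrl RNA 6 of the 7 genes lay below the median gene's 764 reads, and Ly75 lay above it.

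Genes just outside the choice had values close to those of the last genes inside it, and below those of Fam129a and Mme. Next in RNA were Fabp3, a fatty acid binding protein, at 1.19, Sfrp1, a secreted Wnt inhibitor, at 1.18, the transcription factor Tbx3 at 1.18, Dact2 at 1.18 and Myof, a membrane repair protein, at 1.16. Next in RPF were Rnf128, an ER-linked ubiquitin ligase, at 1.31, Renbp at 1.31, Fabp3 at 1.16, Sfrp1 at 1.15 and the mitochondrial isocitrate dehydrogenase Idh2 at 1.15. Grik3 held 5th place in RNA at 1.25, and the values of all 5 genes that followed lay within its interval of 1.00 to 1.51.

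**Figure D2:**
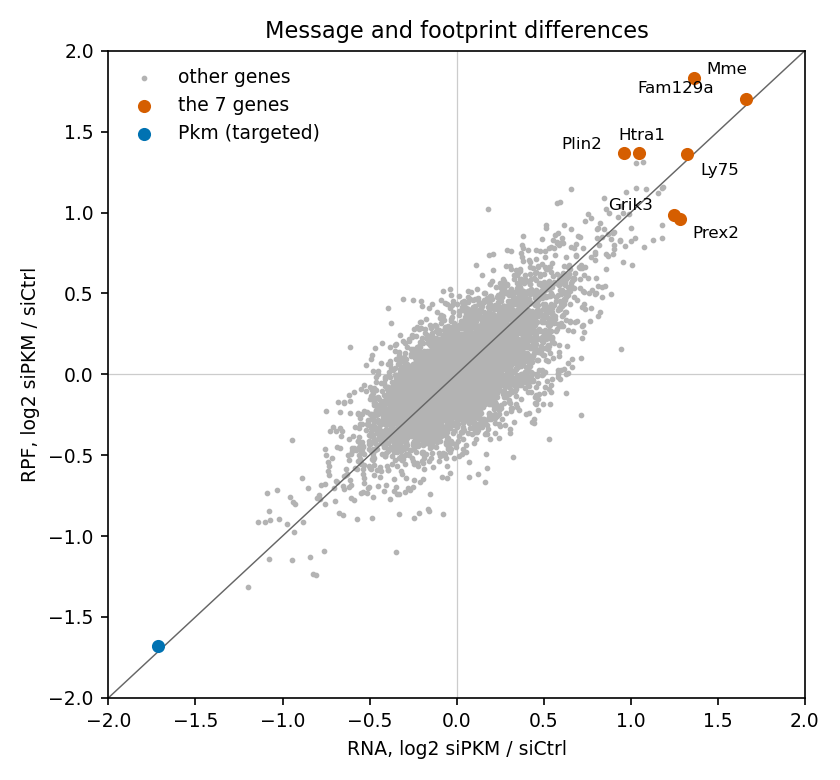
Log2 ratio of siPKM over siCtrl in RNA (x axis) and in RPF (y axis) for 6532 genes, 1 library per group and kind; orange marks the 7 genes, blue the targeted Pkm, and the diagonal marks equal ratios. Mme, Plin2 and Htra1 lie above the diagonal, Fam129a and Ly75 on it, and Prex2 and Grik3 below it.

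The 2 readouts did not place the genes in the same order, and the TE ratio gives the difference. It comes from the same libraries and contrast as the choice, so it is a description too. Choice by RPF alone, as for Htra1 and Plin2, favours a high TE ratio. Choice by RNA alone, as for Prex2 and Grik3, favours a low one. The sign of the TE ratio of these genes thus follows in part from the choice, also where a counting interval leaves out 0. Of the 7 genes 0 were 1.5-fold apart in TE in either direction, beside 0.184% of all genes higher and 0.827% lower. The largest TE ratio of the 7 was that of Mme, 0.47 (0.19 to 0.74). Its log2 TE was -0.24 in siCtrl and 0.20 in siPKM. Plin2 followed at 0.40 (0.07 to 0.73), from -0.31 to 0.07, and Htra1 at 0.32 (-0.05 to 0.69), from 0.09 to 0.39. For the peptidase and the lipid droplet protein the counting interval lay above 0, and for the other 5 it held 0.

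Fam129a and Ly75 had TE ratios of 0.04 (-0.23 to 0.30) and 0.03 (-0.08 to 0.15), so their footprints and messages differed alike within counting error. The bound for Ly75 is tight, at most 0.15 in log2. Grik3 stood at -0.27 (-0.61 to 0.08) and Prex2 at -0.33 (-0.69 to 0.03). The median TE ratio of the 7 was 0.04, against 0.00 over all genes.

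In siCtrl, the TE of these messages lay between percentiles 11.4 and 66.3 of all genes. Of the 7, Prex2 carried few footprints per message, with a log2 TE of -1.04 (-1.33 to -0.76) (percentile 11.4). Fam129a stood at -0.40 (percentile 36.0), Plin2 at -0.31 (41.4), Mme at -0.24 (45.9) and Ly75 at -0.11 (54.4). Htra1, at 0.09, and Grik3, at 0.10, were at percentiles 65.6 and 66.3. The median of all genes was -0.18. The interval of Prex2 did not overlap that of any other of the 7, whereas the intervals of Fam129a, Plin2 and Mme overlapped one another.

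RNA reads in the 3' UTR, which the choice did not use but which come from the same libraries, gave a second reading of the message. On the scale of the CDS ratios, the 3' UTR ratio was 1.45 (1.15 to 1.76) for Fam129a from 123 and 298 reads, 1.44 (1.18 to 1.70) for Mme from 165 and 396, and 1.23 (1.00 to 1.46) for Grik3 from 232 and 481. Htra1 stood at 1.24 (0.81 to 1.67), Prex2 at 1.11 (0.84 to 1.38) and Plin2 at 0.63 (0.16 to 1.10), each interval being above 0. The values of Fam129a and Plin2 lay below the intervals of their CDS ratios, and the other 4 lay inside. Over all genes with at least 40 such reads the median was 0.00. Ly75 had 0 reads in either UTR in all 4 libraries. The same holds for 33 of the 6532 genes (0.505%), and whether the Ly75 transcript model has UTRs is not given here.

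**Figure D3:**
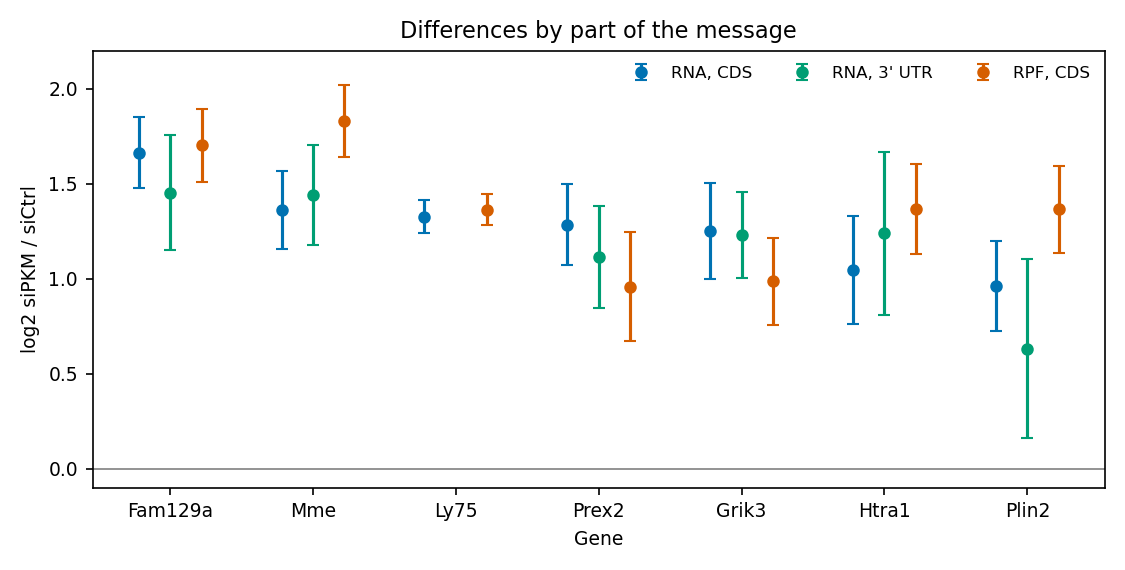
Log2 ratio of siPKM over siCtrl for RNA reads in the CDS (blue), RNA reads in the 3' UTR (green) and RPF reads in the CDS (orange) of the 7 genes (x axis), with 95% counting intervals, 1 library per group. Every interval shown lies above 0, Ly75 has no 3' UTR point because it had 0 such reads, and the 3' UTR value of Plin2 (0.63) is the lowest.

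The 5' ends were thinly covered. Plin2 had 20 of 254 RPF reads in its 5' UTR in siCtrl and 21 of 529 in siPKM, that is 7.87% (Clopper-Pearson interval 4.88 to 11.9) and 3.97% (2.47 to 6.004), against 5.41% and 5.15% over all genes. Its 5' UTR footprint ratio was 0.32 (-0.55 to 1.19), beside 1.37 in the CDS, with intervals that overlapped slightly. In the RNA of Plin2 the 5' UTR share was 5.50% and 4.17%. Fam129a had 9 of 450 RNA reads in its 5' UTR in siCtrl and 43 of 1238 in siPKM, or 2.00% (0.919 to 3.76) and 3.47% (2.52 to 4.65). Its footprints in the first 15 codons numbered 13 and 46, a ratio of 2.04 (1.16 to 2.91), beside 1.11 (0.29 to 1.93) for Mme from 18 and 33. For Prex2, Grik3 and Htra1 the first 15 codons held at most 7 footprints in a library, too few to place the ratio.

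Genes near the 7 on the chromosomes were examined for a shared difference. The nearest table genes on each side in RefSeq order, 14 in all with 0 to 6 other protein-coding genes in between, had RNA ratios of -0.47 to 0.73 and RPF ratios of -0.56 to 0.56. Of these 1 was past 1.5-fold in RNA, Rbms1 on one side of Ly75 with 2 genes in between, at 0.73 with 0.30 in RPF, and 0 were in RPF. Of all genes, 2.88% were at least 1.5-fold higher and 1.24% lower in RNA, and 2.66% and 1.53% in RPF. With 14 genes, nothing is read from this count. Next to Fam129a, Rnf2 stood at 0.27 and 0.40 and Edem3 at 0.31 and 0.25. Beside Plin2, Haus6 stood at -0.08 and -0.20 and Dennd4c at 0.38 and 0.18. Prex2 lay between Arfgef1, at 0.47 and 0.56, and Sulf1, at -0.47 and -0.56.

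The CLIP libraries came from cells without siRNA, so the stops themselves are independent of the choice, but CLIP over control RNA shares the siCtrl RNA library with it. Grik3 had 308 and 267 stops in the replicates, 426 ± 39.9 CPM of all stops (SD, n = 2). Over control RNA of the whole transcript its log2 ratio was 4.30 (4.39 and 4.20 in the replicates), 8th of all genes. Relative to its level in stem cells, the message of this neuronal receptor subunit was among the most crosslinked in the table.

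Mme followed, with 170 and 168 stops (251 ± 0.250 CPM) and a ratio of 3.42 in both replicates, at percentile 99.1. Htra1 had 40 and 42 stops (60.8 ± 2.55) and a ratio of 2.33, and Ly75 had 195 and 185 (282 ± 8.41) and 1.83. Prex2 had 39 and 47 stops (63.8 ± 8.86) and stood at 1.48, and Fam129a had 24 and 27 (37.8 ± 3.43) and stood at 0.72. From the stops of both replicates pooled, the exact Poisson intervals of Ly75 (1.68 to 1.97) and Prex2 (1.15 to 1.77) overlapped. These intervals, and the spread between replicates, leave out the error of the control RNA library, which both replicates share as denominator.

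Plin2 went the other way, with 2 and 3 stops. Its mean level of 3.71 CPM lay below the limits that a count of 0 allows in a single replicate, which at 3 counts are 4.43 and 4.47. Those limits do not apply to the pooled stops, which numbered 5, with an exact Poisson interval of 1.20 to 8.66 CPM. The pooled ratio over control RNA was -2.12, with an exact Poisson interval of -3.74 to -0.90. Stops were thus found, but few for the level of the message. Whether they exceed background was not tested, as no background library was among those used. Whether the CLIP replicates were separate cultures is not stated, so their SD may be a technical one.

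Over control RNA, 5 of the 7 messages were in the top 25% of genes and the median of the 7 was 1.83, against 0.08 for all genes. Choosing genes by a high siPKM over siCtrl ratio favours low readings in control RNA and high readings in siPKM RNA. Neither denominator is thus free of the choice, and the siPKM RNA library was used as well. The median was then 0.46 (all genes 0.05), 3 messages were in the top 25%, and Fam129a changed sign, at -0.97. Grik3 stood at 3.02 (percentile 98.9), Mme at 1.99 (93.3), Htra1 at 1.22 (80.6), Ly75 at 0.46 (62.1), Prex2 at 0.25 (56.5) and Plin2 at -2.79 (3.34). By stop level alone, 3 of the 7 (Grik3, Ly75 and Mme) were above the median gene's 80.8.

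**Figure D4:**
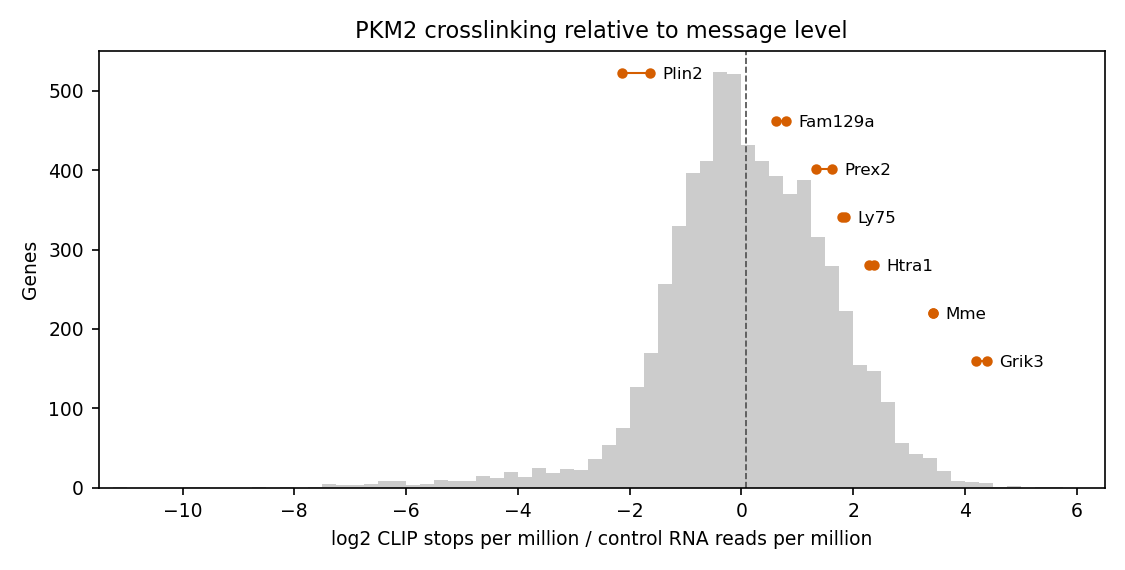
Histogram over 6532 genes of the log2 ratio of CLIP stops over control RNA, both as CPM (grey, mean of 2 replicates; y axis, genes), with the 7 genes in orange at arbitrary heights, 1 point per replicate joined by a line; the dashed line is the median of all genes (0.08). Grik3 and Mme lie in the far right tail, and Plin2 lies left of the median.

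Across RNA ratio, RPF ratio and CLIP over control RNA, each scaled by its SD over all genes, the genes most like each of the 7 were found by Euclidean distance among genes outside the 7. Closest to Htra1 was Rnf128, at 0.477 SD, and closest to Prex2 was Dact2, a Wnt pathway regulator, at 0.531. Grik3 was nearest to Tbx3 (0.759) and Sfrp1 (0.931), and Plin2 to Renbp (0.890) and Idh2 (1.04). For Ly75 they were Rnf128 (0.943) and Myof (1.13). Fam129a and Mme lay farther from any gene outside the 7, the nearest being Rnf128 at 2.65 and 2.44. The RNA and RPF ratios are also the values that chose the genes, and Fam129a and Mme hold the 2 highest places in both. Their distance, and the nearness of genes next in rank, thus follow in part from the choice.

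Related genes were described from lists chosen with earlier results of these data known. The list of HtrA family members, secreted proteases and inhibitors, which also holds lysosomal cathepsins and the ER collagen chaperone Serpinh1, had 8 genes in the table besides Htra1. Of these, 4 were at least 1.5-fold higher and 0 lower in RNA, with the same counts in RPF, and Serpinh1 (0.60 and 0.81) was among the 4. For this list and those below, the shares over all genes were 2.88% higher and 1.24% lower in RNA. In RPF they were 2.66% higher and 1.53% lower. All 8 were above 0 in RNA and 7 in RPF, with medians of 0.54 and 0.55, against 0 for all genes by construction. Highest were the proprotein convertase Pcsk6, at 0.60 and 0.84, and the cathepsin Ctsl, at 0.66 and 0.79. Lowest were Htra2, the mitochondrial relative of Htra1, at 0.14 and -0.22, and the lysosomal cathepsin Ctsd, at 0.17 and 0.26.

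Cell surface peptidases and related enzymes other than Mme (14) had 1 gene higher in RNA, the sheddase Adam9 (0.62, with 0.55 in RPF), 0 higher in RPF and 0 lower in either. Background shares of genes at least 1.5-fold lower were 1.24% in RNA and 1.53% in RPF. The medians were 0.04 in both. Adam10 came next, at 0.40 and 0.50, and Thop1 (-0.30 and -0.37) and Dpp9 (-0.14 and -0.49) were lowest. The closest relatives of neprilysin in the table were the endothelin-converting enzymes, Ece1 at -0.20 and -0.22 and Ece2 at -0.19 and -0.19. Neither had a value above 0, and whether they were lower in siPKM was not tested. The Ece2 row has the current RefSeq symbol Eef1akmt4-ece2.

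Endocytic receptors and their partners other than Ly75 (12) had 1 gene higher in RNA and 2 in RPF, with 0 lower and medians of 0.15 and 0.25. The sorting receptor Sorl1 stood at 0.80 and 0.74 and the receptor chaperone Lrpap1 at 0.34 and 0.65. The lipoprotein receptor family members Lrp1 (-0.14 and -0.16) and Lrp2 (0.01 and -0.04) were lowest. Other members of the mannose receptor family were not among the genes used.

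Rac exchange factors and their partners other than Prex2 (22) had 2 genes higher in RNA and 0 in RPF, 0 lower, and medians of 0.14 and 0.06. The highest were Arhgef2, at 0.66 and 0.58, and Dock4, at 0.65 and 0.32. Rac1 itself stood at 0.15 and 0.11. The exchange factor Tiam1 was among the low values, at -0.05 and -0.44.

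Glutamate receptor genes other than Grik3 were represented by 4 scaffold and partner proteins and by no channel subunit. Gripap1 stood at 0.47 and 0.50 and Dlg1 at 0.02 and 0.01, Pick1 at -0.20 and 0.09 and Dlg3 at -0.25 and -0.04, so 0 were past 1.5-fold. The median was -0.09 in RNA (mean 0.01) and 0.05 in RPF.

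Lipid droplet proteins and triglyceride enzymes other than Plin2 (15) had 1 gene higher and 0 lower in RNA, and 1 higher and 1 lower in RPF, with medians of 0.09 in both. Cpt1a, which admits fatty acids to mitochondria, stood at 0.87 and 0.73, and the triglyceride synthase Dgat1 at 0.45 and 0.24. The phosphatidate phosphatase Lpin1 was lowest, at -0.21 and -0.66, before Soat1, which esterifies sterols, at -0.25 and -0.08. Plin3, the other perilipin in the table, stood at -0.11 and -0.03.

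PPAR targets of fatty acid use (14, Cpt1a again among them) had 2 higher and 1 lower in RNA and 3 higher and 0 lower in RPF. The shares over all genes were 2.88% and 1.24% in RNA and 2.66% and 1.53% in RPF. Fabp3 stood at 1.19 and 1.16, the carnitine carrier Slc25a20 at 0.55 and 0.83, Angptl4 at -0.56 and -0.39 and Fabp5 at -0.60 and -0.47. The RNA median was -0.04 (mean 0.09) and the RPF median 0.18.

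Genes of the ATF4 and ER stress response (23), among which Fam129a is often counted, had 1 higher and 0 lower in both readouts, with medians of -0.04 in RNA (mean 0.02) and 0.05 in RPF. Without centring, the RNA medians of this list and of the PPAR targets were both 0.01, so neither has a stable sign. The asparagine synthetase Asns stood at 0.65 and 0.65 and the arginine transporter Slc7a1 at 0.32 and 0.38. Atf4 itself stood at -0.23 and -0.38 and Sesn2 at -0.16 and -0.43. The one relative of Fam129a in the table, Fam129b (Niban2), stood at 0.31 and 0.26. In TE 0 genes of these lists were past 1.5-fold, beside 0.184% of all genes higher and 0.827% lower.

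**Figure D5:**
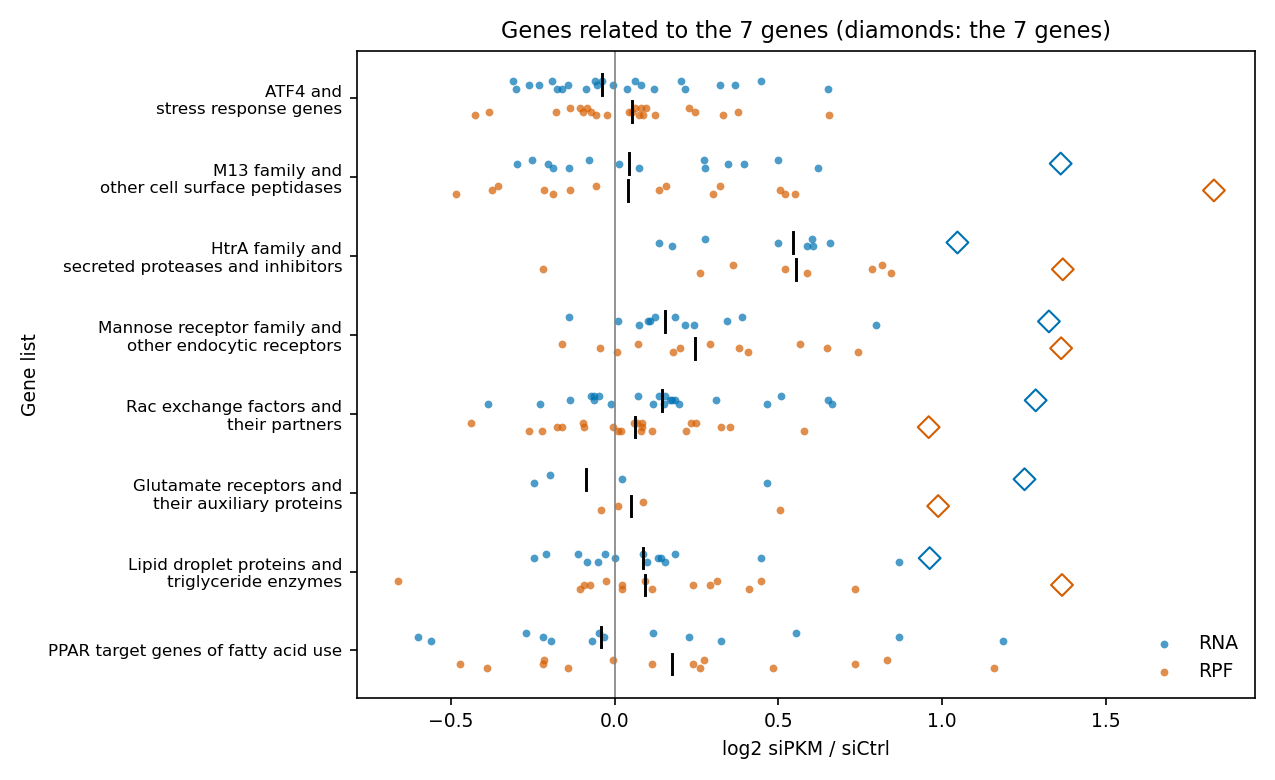
Log2 ratio of siPKM over siCtrl (x axis) for genes of 8 related lists (y axis), blue for RNA and orange for RPF, 1 library per group. Dots are genes, and black bars are the list median without the 7 genes. Diamonds are the 7 genes except Fam129a, which is in none of these lists and is not shown. In the 6 lists that hold one of the 7 genes, the diamonds lie to the right of every dot of their own list in the same colour, and the list medians lie between -0.09 and 0.55. The 7 genes were chosen by these ratios, so the place of the diamonds is largely set by the choice.

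Markers of other cell types were few in the table. Of the markers for macrophages and dendritic cells, where Ly75 and Plin2 are well known, 0 of 9 were present, and for mesoderm 0 of 8. Of the endoderm markers 8 were present, 2 at least 1.5-fold higher in RNA and 3 in RPF, with 0 lower in either. Over all genes 2.88% were higher in RNA and 2.66% in RPF. The endoderm medians were 0.17 in both, and the summed levels 1401 CPM in siCtrl RNA and 1654 in siPKM RNA. Lama1 (0.82 and 0.80), Col4a1 (0.76 and 0.59) and Col4a2 (0.51 and 0.92) were highest, Sparc (0.11 and 0.21), Cubn (0.07 and 0.01) and Lrp2 (0.01 and -0.04) were near 0, and Lamb1 was lowest (-0.24 and -0.13). The genes used held none of Gata4, Gata6, Sox17 or Afp. The 3 fibroblast markers present had medians of 0.36 and 0.68, with 1 at least 1.5-fold higher in RNA, 2 in RPF and 0 lower in either. Fn1 stood at 0.90 and 0.74, Vim at 0.36 and 0.42 and Fbn1 at 0.11 and 0.68. The summed level of the 3 was 705 CPM in siCtrl RNA and 1210 in siPKM RNA. Fn1 was the largest part of that sum, with 5588 and 9210 reads, beside 2777 and 3151 for Vim. The 3 trophoblast markers had medians of 0.37 and 0.32, with Krt8 past 1.5-fold higher at 0.59 and 0.87 and Tcfap2c past 1.5-fold lower at -0.60 and -0.76. The 5 neural markers had medians of -0.54 and -0.59, with 1 at least 1.5-fold higher in both readouts, 2 lower in RNA and 3 lower in RPF. Ncam1 was highest, at 0.64 and 0.67, and Ina lowest, at -0.81 and -1.24. Pluripotency markers (20) had medians of 0.03 and -0.03, with 1 at least 1.5-fold higher in both readouts, 0 lower in RNA and 1 lower in RPF. Tbx3 was highest, at 1.18 and 0.84, and Klf2 lowest, at -0.52 and -0.74. Esrrb stood at 0.55 and 0.35, Pou5f1 at -0.04 and -0.16 and Zfp42 at -0.29 and -0.44. The part of all these markers in the values of the 7 genes was not tested.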

How the data were processed

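Messenger RNA, ribosome footprints and PKM2-crosslinked RNA of E14 stem cells were read from 1 table of 6 libraries, grouped by sample title. The authors deposited raw counts of reads by transcript region and raw counts of reverse transcription stops, per the file headers, with their own log2 RPM and TE values. Reads were handled with cutadapt and Bowtie2 on build mm9, per the submitters' processing notes, while tool versions, strand handling and multiply matching reads are not given in the sources used here. 4 columns were not used. Symbols with several rows kept the row with most RNA reads (6535 rows, 6532 genes), and a floor of 64 mean reads removed 0. CDS counts outside the first 15 and last 5 codons, plus 0.5, were scaled by library sum, and log2 ratios were centred on the median gene. No test was possible with 1 library per group, and genes at least 1.5-fold apart were counted. The code was checked on simulated data. Names came from RefSeq (6468 genes matched), as did promoters, and protein sequences were not used here. Python 3.11.15, numpy 2.4.6, scipy 1.17.1 and edgeR 4.0.16 (TMM factors, as an alternative) were used. The genes and lists were chosen with earlier results of these data known. Named beside the 7 were the 5 next in rank, the 2 nearest genes by distance, and of each list its 2 highest and 2 lowest genes and relatives of the 7, except 1 item that is not reported here; other genes were named after their values were seen.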

Additional observations from a re-analysis of the deposited data

How the results depend on the processing

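The ratios of the 7 genes were recomputed with 2 reads added, with TMM factors, without centring and with the whole coding sequence. A higher floor, no floor and the authors' log2 values (added after the data were seen) were used as well. Dropping the floor could change nothing, because the floor had removed 0 genes. None of the ratios changed direction in the other settings. RNA values from the whole transcript or the 3' UTR also kept their direction, and 2 lay outside the counting interval, those of Fam129a (1.44) and Plin2 (0.62) from the 3' UTR. All 7 kept at least 1.5-fold in RNA and RPF, except that with a floor 4 times as high on mean reads Prex2 and Htra1 were not among the genes, leaving 5. With that floor, where fewer genes were counted, 5 were at least 1.5-fold higher in TE and 35 lower, beside 12 and 54. In RNA the counts with that floor were 151 and 63, beside 188 and 81. Why the TE counts fell was not tested. Without centring, genes at least 1.5-fold higher and lower in RNA numbered 242 and 61, beside 188 and 81. CLIP over RNA of Fam129a reversed to -0.97 with siPKM RNA as denominator. With 2 counts added, CLIP over control RNA of Plin2 was -1.28, beside -1.86. No paired analysis was possible because each siRNA group has 1 library of each kind. Few reads limit Htra1, Prex2 and the 5' ends, and few stops limit Plin2.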
